A study of Mus musculus with 6 samples.

Results

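The NF-κB family comprises dimeric transcription factors and the proteins that hold them in the cytoplasm. The 10 genes described here were taken as a named list from the deposited gene table of 26332 genes: the subunits Nfkb1, Nfkb2, Rel, Rela and Relb, the IκB inhibitors Nfkbia, Nfkbib and Nfkbie, the feedback enzyme Tnfaip3 and the nuclear IκB-family protein Bcl3. They were measured by RNA-seq in double negative 3 (DN3) thymocytes, the precursors in which a newly rearranged β chain is tested, from 2 C57BL/6 mice labelled as Tcf7 knock-outs (KO 1, male, and KO 2, female) and 4 wild-type C57BL/6 mice (WT 1, WT 2 and WT 3, female, and WT 4, male). Tcf7 encodes the T-cell factor TCF-1. The labels state neither the allele, nor the part of the gene removed, nor the age of the mice, and each library came from 1 mouse. The sort kept cells with CD25 and without CD8, CD44, NK1.1, TCRβ, CD3 or binding of a CD1d tetramer.

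In resting cells NF-κB dimers are kept out of the nucleus by IκB proteins. Signals from antigen receptors, Toll-like receptors and receptors of the tumour necrosis factor family activate the IκB kinase (IKK) complex, which marks IκB for degradation. A second, non-canonical route uses the kinase NIK to process the Nfkb2 product, which pairs mainly with RelB. In thymocytes, NF-κB is known to act downstream of the pre-T-cell receptor, and several genes of the family (Nfkbia, Nfkb2, Rel, Relb, Tnfaip3) are themselves NF-κB targets, which forms feedback loops.

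Libraries held 13673860 to 41666797 counts, the shallowest being KO 2. Genes with a count numbered 13294 in KO 1 and 14384 in KO 2, against 15788 to 16013 in WT, and mitochondrial genes took 0.893% and 1.78% of counts in KO, against 2.61% to 2.92% in WT. These measures move with genotype in every comparison below, and their part in the results was not tested. Tcf7 itself stood at 1133 and 1022 CPM (counts scaled to a common library size with TMM factors) in KO 1 and KO 2, against 2326, 2270, 2266 and 2094 CPM in WT 1 to 4, so its transcripts remained at a reduced level. All 10 DN3 markers were detected in all 6 libraries, with summed levels of 7814 and 8208 CPM in KO 1 and KO 2 and 9316 to 9859 CPM in WT. By the test given below, 4 of them fell (Il2ra, Ptcra, Notch3 and Hes1), beside 16.5% of all genes tested. Dtx1 rose (922 and 808 CPM in KO, 231 to 249 CPM in WT), and 5 did not pass. Il2ra, for example, was at 1131 and 708 CPM in KO and 1751 to 2119 CPM in WT. Rag1 did not pass, with KO 1 (521 CPM) below and KO 2 (1953 CPM) above the WT range of 1476 to 1925 CPM. KO 2 also held B-cell transcripts: all 12 B-cell markers had counts there (summed 1150 CPM), while KO 1 had 8 of 12 (626 CPM) and WT 8 to 10 (302 to 349.5 CPM). Ighm was the largest part of each sum, at 522 and 877 CPM in KO 1 and KO 2 and 185 to 220 CPM in WT. Cd22 and Cd79a were above every WT library in KO 1 too (6.29 and 3.68 CPM there). Cd79b in KO 1 (10.8 CPM) and Spib in KO 2 (53.4 CPM) were below every WT library. Ms4a1 and Pax5, which define B cells, were at 36.0 and 7.54 CPM in KO 2 and had no count in KO 1 or in any WT library. Of 9 double-positive and mature T-cell markers, summed levels were 1321 and 2745 CPM in KO 1 and KO 2 and 532 to 685 CPM in WT. Dendritic and myeloid markers summed to 63.4 and 66.3 CPM in KO and 76.3 to 81.6 CPM in WT, with Cst3 the largest part. Cd14 and Siglech were at 0 in every library. Of 6 tested, Lyz2 fell (0.154 and 1.19 CPM in KO, 16.8 to 18.4 in WT). Itgam rose (4.81 and 6.87 CPM in KO, 0.492 to 0.752 in WT) and 4 did not pass. NK and innate markers summed to 125 and 150.1 CPM in KO and 164 to 177 CPM in WT, with Il7r and Nkg7 largest. Of 5 tested, Il7r fell (69.0 and 61.4 CPM in KO, 105 to 112 in WT) and 2 did not pass. Gzmb (2.20 and 26.0 CPM in KO, at most 0.410 in WT) and Prf1 (2.15 and 10.5, at most 0.460) rose. In such bulk samples, fewer cells of a type and less RNA per cell cannot be told apart.

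The start regions of the genes that changed are shown first, because several NF-κB genes carry binding motifs of their own family there. RefSeq promoter windows (build GRCm38.p6, 250 bases before to 50 after a start) were held for 8 of the 10 genes, as 11 windows, and not for Nfkb1 and Relb. The windows printed are those of 2 genes with higher and 2 with lower RNA in KO, on the strand of the gene: Nfkbia at chr12:55492598-55492897 (minus strand), Bcl3 at chr7:19822706-19823005 (minus strand), Nfkbie at chr17:45555450-45555749 (plus strand) and Tnfaip3 at chr10:19015361-19015660 (minus strand, the upstream one of its 2 windows). Capitals mark each match to the κB consensus motif on either strand.
Nfkbia: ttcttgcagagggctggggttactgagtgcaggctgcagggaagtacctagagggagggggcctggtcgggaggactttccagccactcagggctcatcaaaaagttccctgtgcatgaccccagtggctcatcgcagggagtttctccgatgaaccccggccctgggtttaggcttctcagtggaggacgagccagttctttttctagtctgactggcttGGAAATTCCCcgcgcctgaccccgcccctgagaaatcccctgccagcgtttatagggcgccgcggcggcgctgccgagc
Bcl3: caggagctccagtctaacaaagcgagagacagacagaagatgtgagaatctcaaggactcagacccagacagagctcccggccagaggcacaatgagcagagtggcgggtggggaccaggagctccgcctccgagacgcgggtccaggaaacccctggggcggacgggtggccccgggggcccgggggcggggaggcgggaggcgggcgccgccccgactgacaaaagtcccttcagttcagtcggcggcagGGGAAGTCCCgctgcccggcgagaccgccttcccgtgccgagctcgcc
Nfkbie: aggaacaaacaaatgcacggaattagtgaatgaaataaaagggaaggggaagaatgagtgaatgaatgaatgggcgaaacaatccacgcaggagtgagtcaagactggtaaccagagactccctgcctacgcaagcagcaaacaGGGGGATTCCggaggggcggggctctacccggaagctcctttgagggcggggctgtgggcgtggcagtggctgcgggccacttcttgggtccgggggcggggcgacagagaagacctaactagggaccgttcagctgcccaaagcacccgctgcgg
Tnfaip3: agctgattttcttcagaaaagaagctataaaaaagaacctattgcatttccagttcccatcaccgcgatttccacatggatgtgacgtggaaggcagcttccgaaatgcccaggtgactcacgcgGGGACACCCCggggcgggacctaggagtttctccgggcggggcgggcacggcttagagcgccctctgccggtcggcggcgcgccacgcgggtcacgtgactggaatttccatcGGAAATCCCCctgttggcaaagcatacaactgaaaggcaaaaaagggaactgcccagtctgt
The Nfkbia match began 29 bases before the start, the Nfkbie match 106 bases before it, those of Tnfaip3 125 and 12 bases before it, and the Bcl3 match 2 bases after it. A κB match was present in at least 1 window of 6 of the 8 genes (also Nfkb2 and Rel, not Rela or Nfkbib). Nfkb2 had 3 windows, of which 2 and 3 overlap and share a match, and the Tnfaip3 window not printed held none. Of all 32851 windows of that length in the RefSeq table, 4.51% held a match, a rate per window and not per gene. The TCF/LEF motifs CTTTGAT and CTTTGAA, searched on both strands, were in none of the 11 windows and in 3.73% and 5.14% of all windows. A match is a string of letters and does not show binding. Genes with higher and with lower RNA in KO both carried κB matches.

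Expression of the family differed between KO and WT in both directions. By edgeR's quasi-likelihood test with sex as an additive term and Benjamini-Hochberg adjustment over 13294 genes, 4 of the 10 genes rose (Nfkb1, Relb, Nfkbia and Bcl3), 2 fell (Nfkbie and Tnfaip3) and 4 did not pass (Rel, Rela, Nfkb2 and Nfkbib). Over all genes tested, 30.7% passed, 14.1% higher and 16.5% lower. The median log2 fold change was 0.32 over the 10 genes (0.26 without Bcl3) and -0.045 over all genes. All 10 passed the filter on low counts, Bcl3 only through its KO libraries, so that its difference is in part a condition of its being tested. Both KO libraries lay outside the WT range for 7 of the 10 genes, against 51.5% of all genes tested. Nfkb1, Nfkbia and Nfkbie kept an adjusted p under 0.05 in all 12 alternative settings. The share of all genes that did so is not given here, so this describes these 3 genes only. With limma-voom weights per genotype 5 of the 10 passed, against 11.3% of all genes, and with the replicate number as a block 3 of the 10, against 5.63% of all genes.

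**Figure D1:**
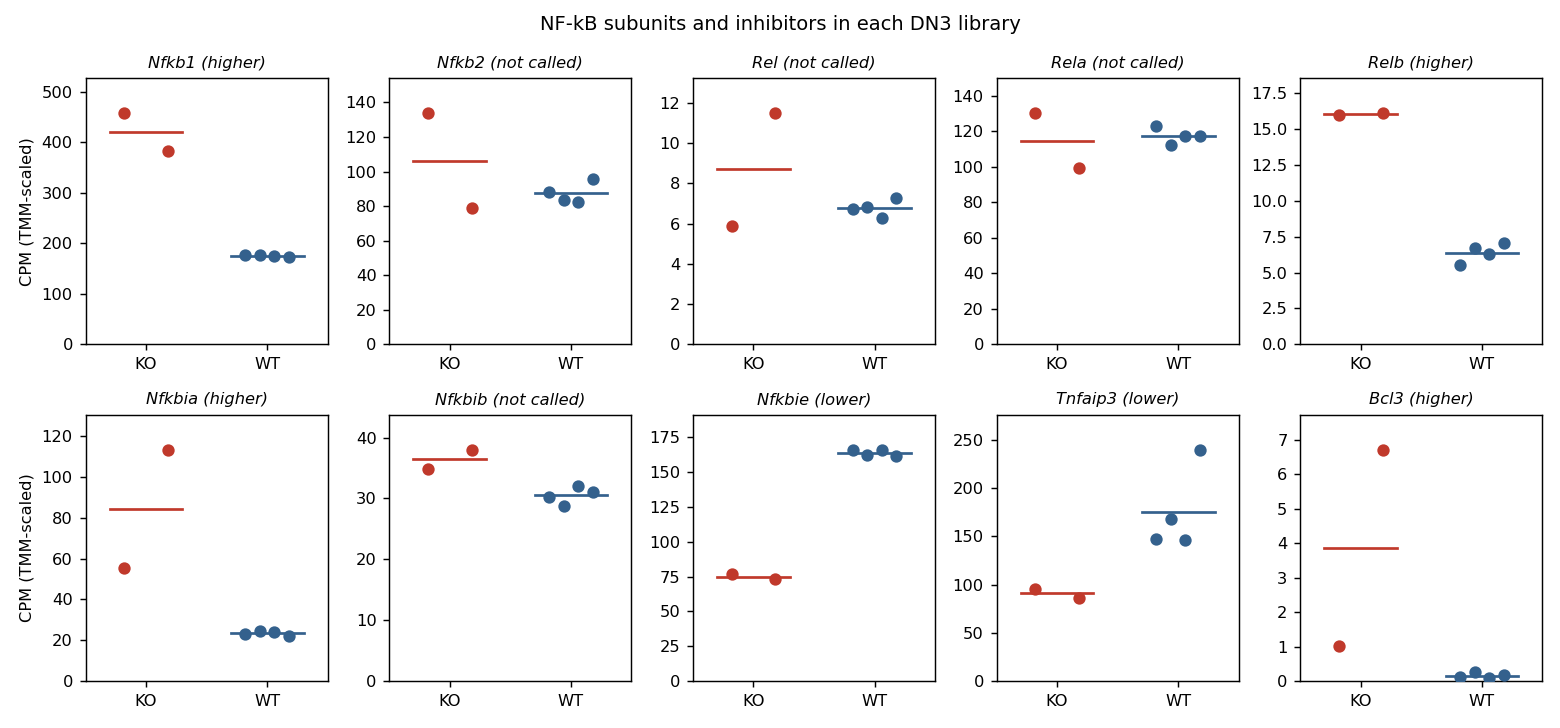
Expression of each gene in CPM (TMM-scaled, linear axis from 0) in 2 KO and 4 WT libraries, 1 point per mouse in order of replicate number, with lines at group means and the call by edgeR in the panel title. The KO points of Nfkb1, Relb and Nfkbia lie well above WT and those of Nfkbie below, while for Nfkb2, Rel and Rela the 2 KO points straddle WT.

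Among the subunits, Nfkb1 and Relb rose. Nfkb1, whose product is processed to a DNA-binding subunit that pairs with RelA, stood at 458 and 383 CPM in KO 1 and KO 2, against 177, 177, 174 and 173 CPM in WT 1 to 4. Both KO libraries were far above a narrow WT group, and Nfkb1 rose 2.36-fold (log2 1.24, SE 0.083, adjusted p = 0.000713). Relb, the partner of the processed Nfkb2 product, had 15.97 CPM in KO 1 and 16.12 CPM in KO 2, against 5.51, 6.68, 6.33 and 7.06 CPM in WT. The KO libraries were nearly equal and the groups did not overlap. Relb rose 2.47-fold (log2 1.30, SE 0.16, adjusted p = 0.00423), a call that was lost with limma-voom weights per genotype (adjusted p = 0.0523) and with the replicate number as a block (adjusted p = 0.171), in a range of 3.62e-09 to 0.171 over the 12 alternatives.

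The other subunits did not pass the test, and in each of them the KO mice lay on opposite sides of WT. Rela, the main transactivating partner of the Nfkb1 product, was at 130.2 CPM in KO 1 and 99.1 CPM in KO 2, against 123, 112, 117 and 118 CPM in WT (log2 -0.083, SE 0.11, adjusted p = 0.609). KO 1 was above every WT library and KO 2 below every one. Nfkb2 was at 134 CPM in KO 1 and 78.9 CPM in KO 2, against 88.1, 83.6, 82.2 and 95.6 CPM in WT (log2 0.14, SE 0.15, adjusted p = 0.501). Its span overlaps Psd and 4833438C02Rik, and with a library kit that does not mark strand their reads may be shared. Rel, whose c-Rel product is prominent in activated lymphocytes, went the other way, with 5.88 CPM in KO 1 and 11.5 CPM in KO 2, against 6.74, 6.81, 6.29 and 7.27 CPM in WT (log2 0.38, SE 0.27, adjusted p = 0.342). KO 2, the library that held Ms4a1 and Pax5, was the only one above 7.27 CPM, and the part of B-cell RNA in that value was not tested.

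Of the inhibitors, Nfkbia and Nfkbie changed in opposite directions. Nfkbia encodes IκBα, the inhibitor that is degraded and resynthesised fastest after a signal. It stood at 55.6 and 113 CPM in KO 1 and KO 2, against 22.9, 24.4, 23.9 and 22.1 CPM in WT. KO 2 was 2.04 times KO 1, and both were above all WT libraries. Nfkbia rose 3.74-fold (log2 1.90, SE 0.20, adjusted p = 0.00279), and the log2 change was 1.32 when KO 2 was left out. Nfkbie encodes IκBε, an inhibitor associated with c-Rel and RelA dimers. It stood at 76.7 and 73.1 CPM in KO 1 and KO 2, against 166, 163, 166 and 162 CPM in WT. The 2 KO libraries were close to each other and below all WT libraries, and Nfkbie fell 2.19-fold (log2 -1.13, SE 0.068, adjusted p = 0.000519). Nfkbib, which encodes IκBβ, was at 34.9 and 38.0 CPM in KO, against 30.3, 28.7, 32.0 and 31.1 CPM in WT. Its groups did not overlap, but the difference did not pass the test (log2 0.26, SE 0.094, adjusted p = 0.0898).

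**Figure D2:**
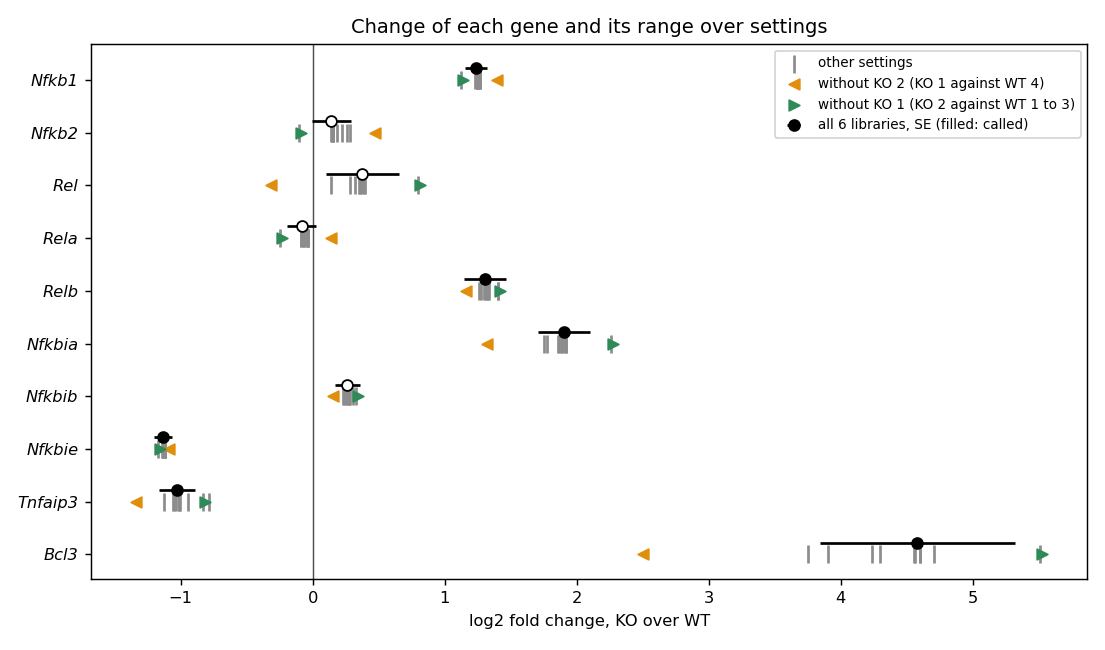
Log2 fold change of each gene, KO over WT, with its SE from the fit on all 6 libraries (circles, filled where the gene passed) above the values from 12 alternative settings (grey bars and coloured triangles). The fits that leave out 1 KO library bracket 0 for Nfkb2, Rel and Rela and lie on 1 side of it for the other 7 genes.

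Tnfaip3, a ubiquitin-editing enzyme that ends NF-κB signalling, fell 2.04-fold. KO 1 had 95.8 CPM and KO 2 86.3 CPM, against 147, 168, 146 and 239.9 CPM in WT 1 to 4. The KO libraries were below every WT library, and the male WT 4 was well above the 3 females (log2 -1.03, SE 0.14, adjusted p = 0.00602). Without WT 4 the log2 change was -0.83 and the call held. With the replicate number as a block it was -0.79 and not called (adjusted p = 0.0818, range 7.66e-09 to 0.0818 over 12 alternatives).

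Bcl3, an IκB-family protein that works in the nucleus with homodimers of the Nfkb1 or Nfkb2 product, was close to absent in WT. It had 20 and 90 counts in KO 1 and KO 2 (1.02 and 6.72 CPM), against 5, 6, 2 and 5 counts in WT 1 to 4 (0.121, 0.251, 0.0767 and 0.176 CPM). The KO libraries differed from each other 6.56-fold, and both were above WT. By pooled counts, KO 1 was 6.82 times WT (exact 95% interval 3.42 to 13.7) and KO 2 44.7 times WT (26.8 to 78.9), and these intervals cover counting error only. The fitted log2 change was 4.58 (SE 0.74, adjusted p = 0.0104). The call was lost without WT 1 (adjusted p = 0.0573), without WT 2 (adjusted p = 0.0526) and with the replicate block (adjusted p = 0.178), within a range of 1.38e-12 to 0.178 over the 12 alternatives. Without KO 2 the log2 change was 2.50.

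Levels per length show what these changes did to the make-up of the family. RPKM here is CPM divided by the deposited gene length in kilobases. In KO, the order by mean RPKM of the subunits was Nfkb1 (111 and 92.9), Rela (48.1 and 36.6), Nfkb2 (40.6 and 24.0), Relb (7.24 and 7.31) and Rel (2.28 and 4.45). In WT, Nfkb1 (42.0 to 42.9) and Rela (41.3 to 45.3) overlapped, Nfkb2 followed at 24.97 to 29.0, and Relb (2.50 to 3.20) and Rel (2.43 to 2.81) overlapped as well. Nfkb1 RPKM was thus 2.31 and 2.54 times that of Rela in KO 1 and KO 2, against 0.947 to 1.04 times in WT.

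The 5 subunits summed to 209.5 RPKM in KO 1 and 165 RPKM in KO 2, against 115 to 120.5 RPKM in WT. Nfkb1 made up 53.1% and 56.2% of that sum in KO, against 34.9% to 37.2% in WT. The share of Rela was 22.9% and 22.1% in KO, against 35.8% to 37.7% in WT, although its own level did not pass the test. Neither pair of ranges overlapped. The 3 cytoplasmic IκB genes summed to 84.8 RPKM in KO 1 and 121 RPKM in KO 2, on either side of the WT range of 96.7 to 100.2 RPKM. Their composition differed more than their sum: Nfkbia made up 41.5% and 59.1% in KO, against 14.5% to 15.8% in WT, and Nfkbie 37.3% and 24.9% in KO, against 68.5% to 69.5% in WT. These shares rest on the same counts as the fold changes above and are no separate evidence.

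**Figure D3:**
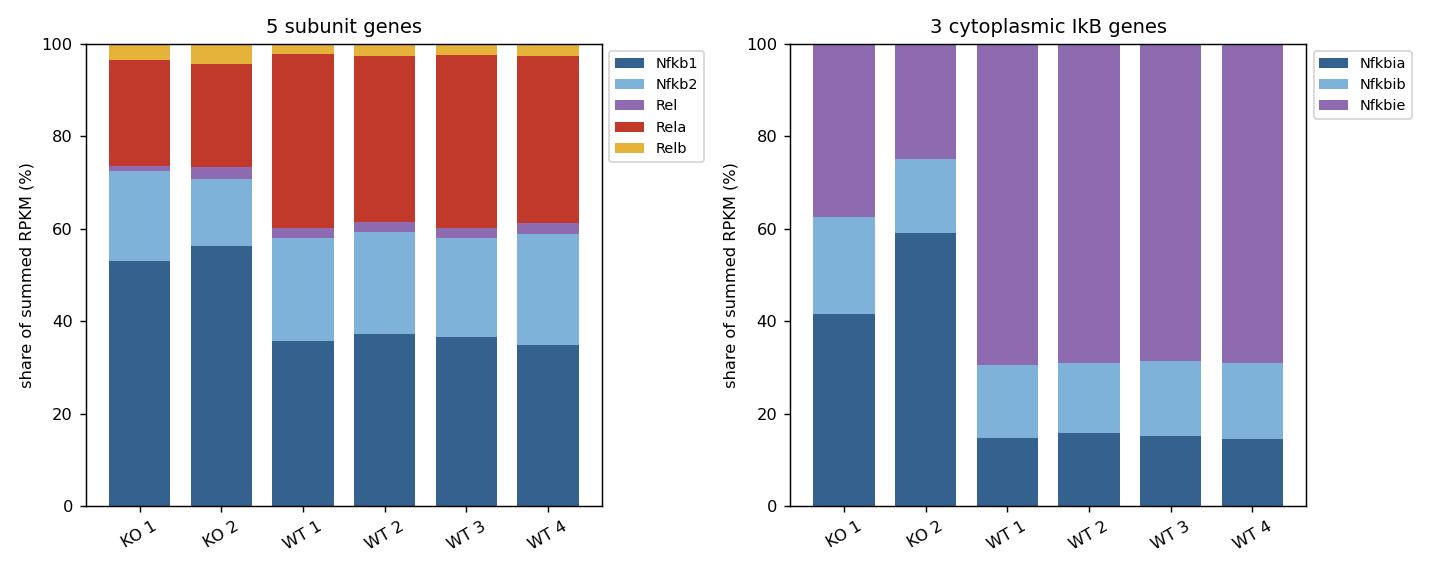
Share of each gene in the summed RPKM of the 5 subunit genes (left) and of the 3 cytoplasmic IκB genes (right), in percent, 1 bar per library with KO first. Nfkb1 takes 53.1% and 56.2% of the subunit sum in KO and at most 37.2% in WT, and Nfkbie takes at most 37.3% of the IκB sum in KO and at least 68.5% in WT.

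The KO libraries were also set against each other. In a fit with the interaction of genotype and sex, 7 of the 10 genes passed, but so did 54.7% of all 13294 genes. That fit has 1 KO library per sex, so sex and mouse cannot be told apart in KO and the spread comes from the WT females alone. Of the 7, Nfkb1, Nfkb2 and Rela had the higher KO value in KO 1 and Rel, Nfkbia and Bcl3 in KO 2, while for Tnfaip3 the KO libraries were close and WT 4 stood above the WT females. The absolute log2 difference between KO 2 and KO 1 had a median of 0.33 over the 10 genes and 0.47 over all genes tested. It was smallest for Relb (0.014) and Nfkbie (-0.068 as KO 2 over KO 1) and largest for Bcl3 (2.62). The B-cell and double-positive markers that were higher in KO 2 moved with Rel, Nfkbia and Bcl3, and their part in these values was not tested.

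Around these genes, 85 further pathway genes in 6 lists were examined, of which 68 were tested. Of the 68, 16 rose, 9 fell and 43 did not pass, with a median log2 change of 0.018. The 36.8% that passed stands beside 30.7% of all genes tested (14.1% higher, 16.5% lower). Of those that passed, 3 that rose (Il1r1, Lta and Tnfaip2) met the filter on low counts only through KO and 2 that fell (Ltbr and Ptgs2) only through WT, so that their differences are in part a condition of their being tested. Among the 61 genes that met the filter in both groups, 13 rose and 7 fell, and the like share of all genes is not given here. The core kinases did not pass: Chuk (IKKα) was at 55.0 and 58.4 CPM in KO against a mean of 66.4 ± 2.33 in WT (SD, n = 4), Ikbkb (IKKβ) at 139 and 102 against 134 ± 5.29, Ikbkg (NEMO, the scaffold) at 68.8 and 71.5 against 80.3 ± 3.61, and Map3k14 (NIK) at 25.7 and 22.99 against 27.7 ± 2.96. Of the 11 kinase-list genes, 3 rose and none fell, a share of 27.3% beside 30.7% of all genes. Tab1 and Tab2, adaptors of the kinase TAK1, rose 1.54-fold (92.7 and 92.1 CPM in KO, 60.1 ± 1.23 in WT) and 1.32-fold (215 and 249.9 CPM in KO, 176 ± 9.19 in WT), and Ikbke, an IKK-related kinase, rose 1.51-fold. The replicate block ended all 3 calls (adjusted p = 0.194 for Tab1, 0.305 for Tab2 and 0.201 for Ikbke), and limma-voom weights those of Tab2 (adjusted p = 0.190) and Ikbke (adjusted p = 0.157). The call of Tab2 was also lost without WT 1, WT 2 or WT 3, and that of Ikbke without WT 1.

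In the list of the BCL10-MALT1 branch, which couples antigen receptors to IKK, 3 of 5 rose and none fell, beside 14.1% of all genes higher. Of these 3 calls, 1 was left with the replicate block, with limma-voom weights and without WT 1, WT 2 or WT 3. Prkcq, the protein kinase C isoform that acts below the T-cell receptor, rose 2.78-fold to 259 and 350.5 CPM in KO, against 109.9 ± 8.68 CPM in WT. Malt1, the paracaspase of the complex, rose 1.65-fold and Pdpk1 1.27-fold, but both calls were lost in each of those settings. Bcl10 was at 40.4 and 57.5 CPM in KO and 53.0 ± 3.53 CPM in WT and did not pass.

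Of 18 TRAF, cIAP and ubiquitin adaptor genes, 4 rose and 2 fell, a share of 33.3% beside 30.7% of all genes. Traf5, an adaptor of several tumour necrosis factor receptors, was at 25.2 and 15.2 CPM in KO, against 0.773, 0.418, 1.23 and 0.914 CPM in WT. Even the lower KO library was far above WT (log2 4.44, SE 0.40, adjusted p = 0.00177). The cIAP ubiquitin ligase genes went opposite ways: Birc3 rose 2.24-fold (23.7 and 28.7 CPM in KO, 12.1 ± 0.553 in WT; call lost with the replicate block, adjusted p = 0.166), and Birc2 fell 1.54-fold (44.7 and 48.9 CPM in KO, 70.9 ± 7.08 in WT), a call lost without WT 1, WT 2 or WT 3, with limma-voom weights and with the block. Tnip1, a binding partner of the Tnfaip3 product, rose 1.54-fold, a call lost in the same 5 settings. Among 3 tested nuclear or atypical IκB genes, Nfkbid fell 2.24-fold (7.42 and 3.96 CPM in KO, 11.4 ± 1.33 in WT; call lost in the same 5 settings), and Nfkbiz and Nfkbil1 did not pass.

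Of 20 receptor and proximal adaptor genes, 14 were tested, 2 rose and 2 fell, a share of 28.6% beside 30.7% of all genes. Ltbr, the lymphotoxin β receptor that feeds the non-canonical route, had 0 counts in KO 1 and KO 2 and 10.7 ± 1.40 CPM in WT, at least 117-fold lower against a floor of 3 counts over the KO group. Cd27, a costimulatory receptor, rose 2.33-fold (366 and 371 CPM in KO, 157 ± 4.19 in WT). Il1r1, the interleukin 1 receptor, was at 88.2 CPM in KO 1 and 6.19 CPM in KO 2, against 0.395 ± 0.307 CPM in WT (log2 5.61, SE 0.53, adjusted p = 0.00203, with log2 values of 4.54 to 7.03 over the 12 alternatives). The KO libraries lay far apart. For Il1r1, 2 KO libraries and 1 WT library were above the filter floor, where 2 are needed, so WT alone did not meet it. Irak1, a kinase of Toll-like and interleukin 1 receptors, fell 1.32-fold, a call lost in the same 5 settings as that of Birc2.

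In the list of known NF-κB target genes, 22 of 32 were tested. Of these 22, 6 rose and 5 fell (median log2 -0.11), beside 14.1% of all genes higher and 16.5% lower. Of the 18 that met the filter in both groups, 4 rose and 4 fell, and the like share of all genes is not given here. Ptgs2, an inducible cyclooxygenase, had no count in KO and 9.23 ± 1.42 CPM in WT, at least 102-fold lower, and its call was lost with limma-voom weights (adjusted p = 0.134). Junb, an AP-1 subunit, fell to 19.8 and 59.3 CPM in KO, against 247, 244.5, 188 and 381 CPM in WT 1 to 4, and the call was lost without WT 1, WT 2 or WT 3 and with limma-voom weights (adjusted p = 0.193). Birc3 and Tnip1 rose, and Nfkbid fell, as given above. Of the 17 pathway genes named here that passed, 5 (Traf5, Prkcq, Ltbr, Il1r1 and Cd27) passed in all 12 alternatives, Ltbr and Il1r1 among them having met the filter through 1 group only.

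**Figure D4:**
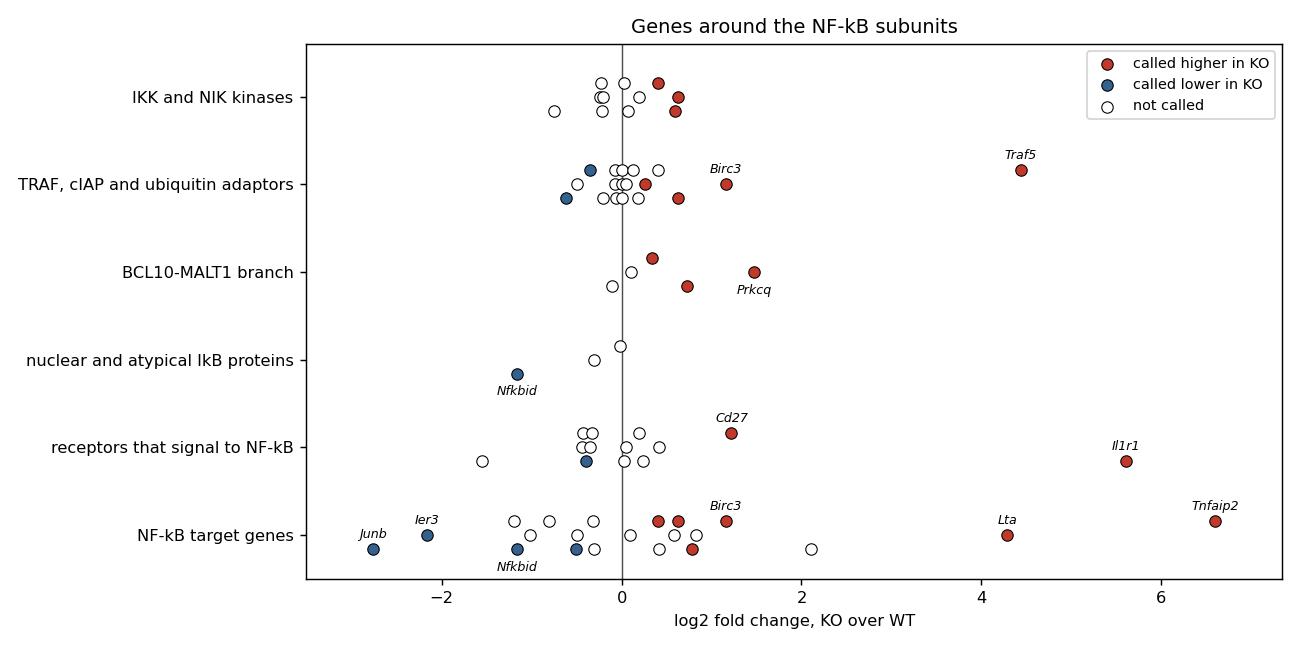
Log2 fold change, KO over WT, of the tested genes in 6 lists of NF-κB pathway genes, 1 point per gene, with names where a called gene changed by more than 1 on the log2 scale; Ltbr and Ptgs2, with no count in KO, are left out. Points of the kinase list cluster near 0, the BCL10-MALT1 list has 3 of 5 genes called higher, and the target list spreads to both sides.

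The genes most like Bcl3 and Nfkbie over the 6 libraries were found by the root mean square distance of log2 CPM less the WT mean, among tested genes of at least 5 CPM. Bcl3, low in WT and higher in KO 2 than in KO 1, was nearest to Gsn, Ccr4 and Slfn5 (distances 0.48, 0.48 and 0.51 on the log2 scale, 9644 genes compared). Gsn, for example, had 23.3 CPM in KO 1, 155 CPM in KO 2 and 5.02 CPM on average in WT. Nfkbie, at similar levels in both KO mice, was nearest to Tcf7 itself (distance 0.061), Diaph2 (0.063) and Smarca4 (0.066, from 9643 genes). Smarca4, an ATPase of chromatin remodelling complexes, was at 623 and 587 CPM in KO and 1367 CPM on average in WT. These distances are descriptions over 6 libraries.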

How the data were processed

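RNA from sorted DN3 thymocytes was amplified with a SMART-Seq v4 kit, which does not mark strand, and read as paired ends on a NextSeq instrument, per the labels' protocols. The authors deposited raw counts for each Entrez gene, from featureCounts on mm10, per the submitters' processing notes. The sources used here name no aligner, version or strand setting. The series table was used, and the 6 single-library tables hold the same values. Symbols, coordinates and promoters came from RefSeq tables of GRCm38.p6 (25275 of 26332 identifiers matched).

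The test was edgeR 4.0.16 in R 4.3.3: filterByExpr with a count minimum of 10, TMM scaling, and a robust quasi-likelihood F-test of KO against WT with sex as an additive term (3 residual degrees of freedom). A gene passed at a Benjamini-Hochberg adjusted p under 0.05 over 13294 genes. The SE is the log2 fold change divided by the square root of F. The alternatives were DESeq2 1.42.0, RLE factors, no filter, no sex term, the replicate number as a block, limma 3.58.1 voom with weights per genotype, and leaving out each library. The test was tried on simulated counts. Replicates are separate mice, per the series' design text. The 10 genes and the lists were chosen with earlier results of these data known. From the pathway lists, 1 gene was left out of all counts and is not reported here. Named were all 10 genes, the core IKK kinases and NIK, up to 4 called genes per list of at least 5 CPM by size of change, and the 3 nearest patterns to the most changed gene in each direction. Lta, Tnfaip2, the cell-type markers named singly and the genes named only as not passing were chosen after their values were seen.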

Additional observations from a re-analysis of the deposited data

Results flagged for a closer look

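Of the 10 genes, 7 differed between the sexes in their KO effect by edgeR's interaction test (log2 effect in males less that in females), as did 54.7% of all genes. With 1 KO mouse per sex, sex and mouse cannot be told apart. The interaction was 0.28 for Nfkb1 (adjusted p = 0.00108), 0.59 for Nfkb2 (adjusted p = 9.48e-07) and 0.39 for Rela (adjusted p = 0.000168), all with the higher KO value in KO 1. It was -1.10 for Rel (adjusted p = 0.00132), -0.93 for Nfkbia (adjusted p = 4.83e-08) and -3.00 for Bcl3 (adjusted p = 0.0301), all with the higher KO value in KO 2. For Tnfaip3 it was -0.49 (adjusted p = 0.00359), where the KO libraries were close (95.8 and 86.3 CPM in KO 1 and KO 2) and WT 4, the only WT male, was at 239.9 CPM, against 146 to 168 CPM in the WT females.

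Among the WT values of the named genes, 1 stood apart by Dixon's criterion: Prkcq was at 123 CPM in WT 4, against 104 to 107 CPM in WT 1 to 3. Chance alone marks about 1 in 20 such groups of 4.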

How the results depend on the processing

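With DESeq2, RLE factors, no filter or no sex term, 4 of the 10 genes rose and 2 fell, as in the report. Over all genes, 39.6%, 30.5%, 21.7% and 29.9% passed in these settings. With DESeq2, RLE factors or no filter, the interaction passed in 6 or 7 of the 10 genes, and in 38.0%, 54.9% and 41.9% of all genes. With limma-voom weights per genotype, 3 rose and 2 fell (11.3% of all genes passed, 987 higher and 513 lower; 9 and 1 of the pathway genes). With the replicate block in place of sex, 2 rose and 1 fell (5.63% of all genes, 413 and 335; 4 and 3 pathway genes). In that fit WT 3 and WT 4 stand alone in their blocks and add nothing to the change. It sets KO 1, a male, against WT 1, a female, and KO 2 against WT 2, both female. The labels do not say that shared replicate numbers pair mice. Deviations of same-numbered libraries correlated at -0.11 and 0.033, but with 2 KO libraries the deviations of KO 2 mirror those of KO 1, so these values do not settle it. Leaving out 1 library gave 3 to 6 genes higher and 2 to 3 lower, 881 to 4321 and 784 to 5152 over all genes, and 9 to 40 and 3 to 40 pathway genes. The high counts came without WT 4, KO 1 or KO 2, fits in which 1 KO library sets the change and WT alone the spread. In those, the sign turned for 3 uncalled genes, with log2 values over the 6 fits of -0.10 to 0.47 for Nfkb2, -0.32 to 0.81 for Rel and -0.25 to 0.14 for Rela. KO depth limits Bcl3 most, with 20 counts in KO 1.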

Other observations

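Several receptor and target genes of the NF-κB lists were present mainly in KO 2. They were not tested, because the filter on low counts needs 2 libraries above its floor. They were chosen after their values were seen. Tnfrsf13c, the receptor for the B-cell survival factor BAFF, was at 12.5 CPM in KO 2, had no count in KO 1 and was at 0.0740 CPM on average in WT. Cd83, an activation marker of B and dendritic cells, was at 9.63 CPM in KO 2, had no count in KO 1 and was at 0.0181 CPM on average in WT. Cd40, a receptor of B and dendritic cells, was at 2.84 CPM in KO 2, had no count in KO 1 and was at 0.0264 CPM in WT. Unlike these genes, Traf1, an adaptor, was present in every WT library, and it was tested and did not pass. Traf1 was at 5.78 CPM in KO 1 and 31.6 CPM in KO 2, against 24.9 ± 0.972 CPM in WT (SD, n = 4). KO 2 was the library with Ms4a1 and Pax5 counts, and the part of B-cell RNA in these values was not tested.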
